A study of Mus musculus with 9 samples.

Results

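Collagens, laminins and integrins build and read the extracellular matrix, and their transcripts were followed in the newborn mouse cortex with and without the transcription factor FEZF2. All genes of the deposited table whose symbol is that of a collagen chain, a laminin chain or an integrin alpha or beta subunit were taken, with no use of their measured values. This gave 81 of 24624 genes, namely 44 collagen chains, 11 laminin chains, 18 integrin alpha subunits and 8 integrin beta subunits. Of the 81 genes, 64 had a mean of at least 10 over the 9 libraries and were tested (34 collagens, 11 laminins, 13 integrin alpha and 6 integrin beta subunits), and 17 were too low.

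Cortices were collected at postnatal day 0 (P0) from pups of Fezf2+/- mice crossed with Fezf2+/-; Fezf2-EnR mice, and each library held polyA RNA from the paired cortical hemispheres of 1 pup. The groups were Fezf2+/+ (3 libraries, replicates bc201 to bc203), Fezf2-/- (4 libraries, bc204 to bc207) and Fezf2-/-; Fezf2-EnR (2 libraries, bc208 and bc209). The Fezf2- null allele carries a human placental alkaline phosphatase (PLAP) gene driven by the Fezf2 promoter and is carried by both mutant groups. Fezf2-EnR is a BAC transgene in which the DNA-binding domain of FEZF2, joined to the repressor domain of engrailed, is placed at the Fezf2 start codon, so that the fusion protein is made where Fezf2 regulatory DNA is active. It comes from a transgenic line made with 1 BAC, and the comparison asks which transcripts of the null cortex return when only a repressor form of FEZF2 is supplied. Litter m1 held bc201, bc202, bc205 and bc206, litter m2 held bc203 and bc209, and litter m3 held bc204, bc207 and bc208.

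Collagen chains assemble into triple helices that form fibrils, basement membrane networks or membrane-bound collagens, and laminins are trimers of an alpha, a beta and a gamma chain that polymerize on cell surfaces. Integrins are alpha-beta heterodimers that bind these ligands and couple them to the cytoskeleton. In the developing cortex, the pial basement membrane, to which radial glial endfeet attach, and the basement membranes of blood vessels are rich in laminin and collagen IV, while some membrane-spanning collagens are made by neurons.

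The libraries held between 18716575 and 25127623 reads, recovered from the normalised values, so that 1 read was worth between 0.831 and 1.09 of a normalised read count. Fezf2 had 1232, 1010 and 979 normalised read counts in Fezf2+/+, 193 to 242 in Fezf2-/-, and 907 and 1001 in Fezf2-/-; Fezf2-EnR, where reads of the transgene can count for Fezf2. The cortical neuron transcription factor Neurod6 was abundant in every library (11317 to 15315), and 5 choroid plexus markers summed to only 6.57 to 28.1. Xist, the RNA of the inactive X chromosome, stood at 10771 in bc201, 12203 in bc208 and 7895 in bc209 and at 58.9 or less in the other 6 libraries, whereas the Y-linked Ddx3y stood at 4.22 or less in those 3 libraries and at 1169 to 1600 in the other 6. The labels do not give the sex of the pups. By these transcripts, both Fezf2-/-; Fezf2-EnR libraries differ in sex from all 4 Fezf2-/- libraries, so in that comparison the transgene and sex cannot be told apart. In these bulk samples, fewer cells of a type and less RNA per cell cannot be told apart either.

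Per kilobase of exon, the highest wild-type level among the 81 genes was that of Itgb1, the beta subunit shared by most collagen and laminin receptors, at 494 ± 13.3 normalised read counts per kilobase (SD, n = 3). Next came the basement membrane chain Col4a1 (415 ± 110), within whose spread Itgb1 lay, and its partner Col4a2 (268 ± 66.6). Itgb8, the TGF-beta-activating partner of the alpha-v subunit, was lower than both by more than their spread (119 ± 10.9). Lamc1 (101 ± 17.5), Itgb5 (101 ± 6.45) and Col9a3 (95.7 ± 7.10) did not differ from each other beyond their spread. Lamb1 (80.5 ± 10.1), Itga6 (64.1 ± 18.5), Itga3 (53.2 ± 5.19) and Col23a1 (50.7 ± 2.71) followed, each within the spread of its neighbour. The most abundant laminin alpha chain was Lama4 (40.1 ± 10.4), known from vessel walls, and behind the laminin-binding Itga6 and Itga3 the next alpha subunit was Itgav (44.5 ± 7.82), which binds RGD-containing ligands. The fibrillar chains were lower, with Col5a2 (15.2 ± 2.40), Col11a1 (13.4 ± 2.69) and Col3a1 (11.2 ± 3.96) at their head. On the same scale Col1a1, which dominates skin and bone matrix, reached 5.77 ± 2.36.

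**Figure D1:**
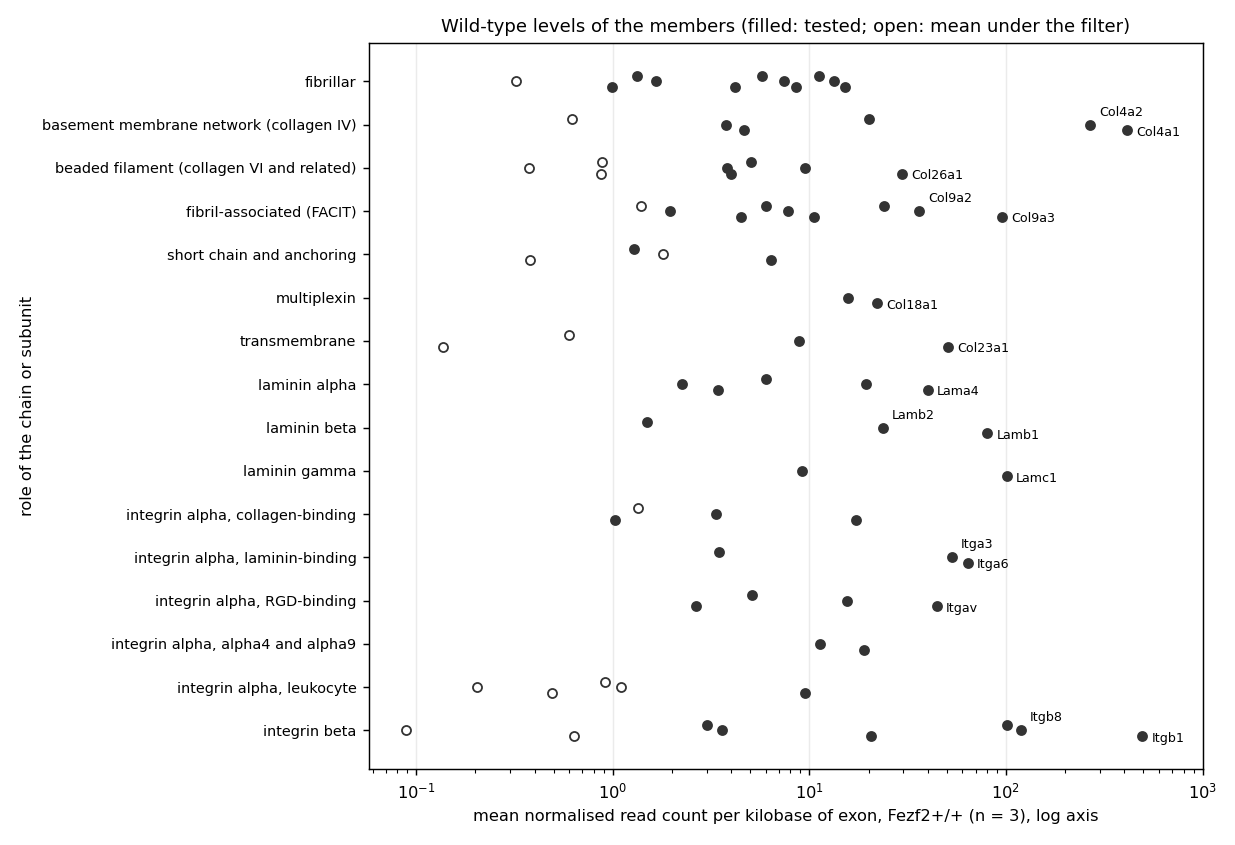
Wild-type level of the collagen, laminin and integrin genes (points, 1 gene left out) by the role of its chain or subunit (rows), as mean normalised read count per kilobase of exon in 3 Fezf2+/+ libraries on a log axis, filled where the gene was tested and open where its mean was too low. Itgb1 (494), Col4a1 (415) and Col4a2 (268) lie furthest right, and among the membrane-spanning collagens Col23a1 (50.7) stands well above the other chains.

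Compared to Fezf2+/+ cortices, 1 of the 64 genes passed the test in Fezf2-/- cortices. Col23a1, a membrane-spanning collagen, was lower, where 0.346% of the 16197 genes tested were called lower and 0.512% higher. A gene is called here when its adjusted p is under 0.05 (limma on log2(value + 1) across all genes tested, Benjamini-Hochberg), and 0.858% of all genes tested were called in either direction. At an unadjusted p under 0.05, 14 of the 64 genes were higher and 2 lower, together 16 genes or 25%. Of all genes tested, 6.61% were higher, 4.21% lower and 10.8% either at that level. The Fezf2-/- and Fezf2+/+ libraries did not overlap for 16 of the 64 genes (25%), higher in 14 and lower in 2, against 13% of all genes tested (6.53% higher and 6.46% lower). The log2 difference was positive for 50 of the 64 genes, with a median of 0.14, against 50% of genes and a median of 0.00 over all genes tested. This lean was smaller within litter m1, where the median was 0.07, and without the Fezf2+/+ library bc203, where it was also 0.07. It was larger without bc201, where the median was 0.23. When 1 library was left out, the median ran from 0.07 to 0.23. Bc203 was the lowest Fezf2+/+ library for 43 of the 64 genes (67.2%, against 36.5% of all genes tested). Bc201 was the highest for 42 of the 64 genes, against 33.5% of all genes tested.

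When Fezf2-EnR was added to the null background, 1 of the 64 genes passed the test against Fezf2-/-. It was Col12a1, a fibril-associated collagen, and it was higher. In this comparison 0.766% of all genes tested were called, 0.333% higher and 0.432% lower. At an unadjusted p under 0.05, 4 of the 64 genes were higher and 7 lower, together 11 genes or 17.2%, close to the 16.9% of all genes tested (7.87% higher and 9.06% lower). The groups did not overlap for 14 of the 64 genes (21.9%), higher in 5 and lower in 9, against 24.6% of all genes tested (12% higher and 12.6% lower). The median log2 difference was -0.13, with 25 genes positive (all genes tested 50.5%), and it was 0.05 without the Fezf2-/-; Fezf2-EnR library bc209. For 47 of the 64 genes bc209 was the lower library of its pair (73.4%, against 48.7% of all genes tested). Without bc208, 9 of the 64 genes were called, where 6.72% of all genes were, and in that fit bc209 is the lone Fezf2-EnR library and is assumed to vary like the other groups.

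Against Fezf2+/+, the Fezf2-/-; Fezf2-EnR cortices had 0 of the 64 genes called by limma, and 0.117% of all genes tested were called (0.0926% higher and 0.0247% lower). At an unadjusted p under 0.05, 8 were higher and 3 lower, together 11 genes or 17.2%, where 19.3% of all genes tested passed (10.5% higher and 8.72% lower). The groups did not overlap for 12 of the 64 genes (18.8%), higher in 8 and lower in 4, against 34.6% of all genes tested (17.3% in each direction). A DESeq2 fit to the recovered reads of all 9 libraries called Itgb8 alone among the 64 genes, where it called 3.96% of all genes, and an edgeR fit called 0, where it called 0.0926%. The median log2 difference of the 64 genes was 0.17 (41 genes positive, against 49.1% of all genes tested), and it was -0.09 without bc208. All 3 comparisons share libraries, so the values below are set side by side for each gene and are not independent of each other. With 4 against 3 libraries, the exact permutation test over 35 splits cannot give a p below 0.029. For 2 against 4 the smallest p is 0.067 and for 2 against 3 it is 0.1, so no comparison with the Fezf2-EnR libraries can pass 0.05 in that test.

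**Figure D2:**
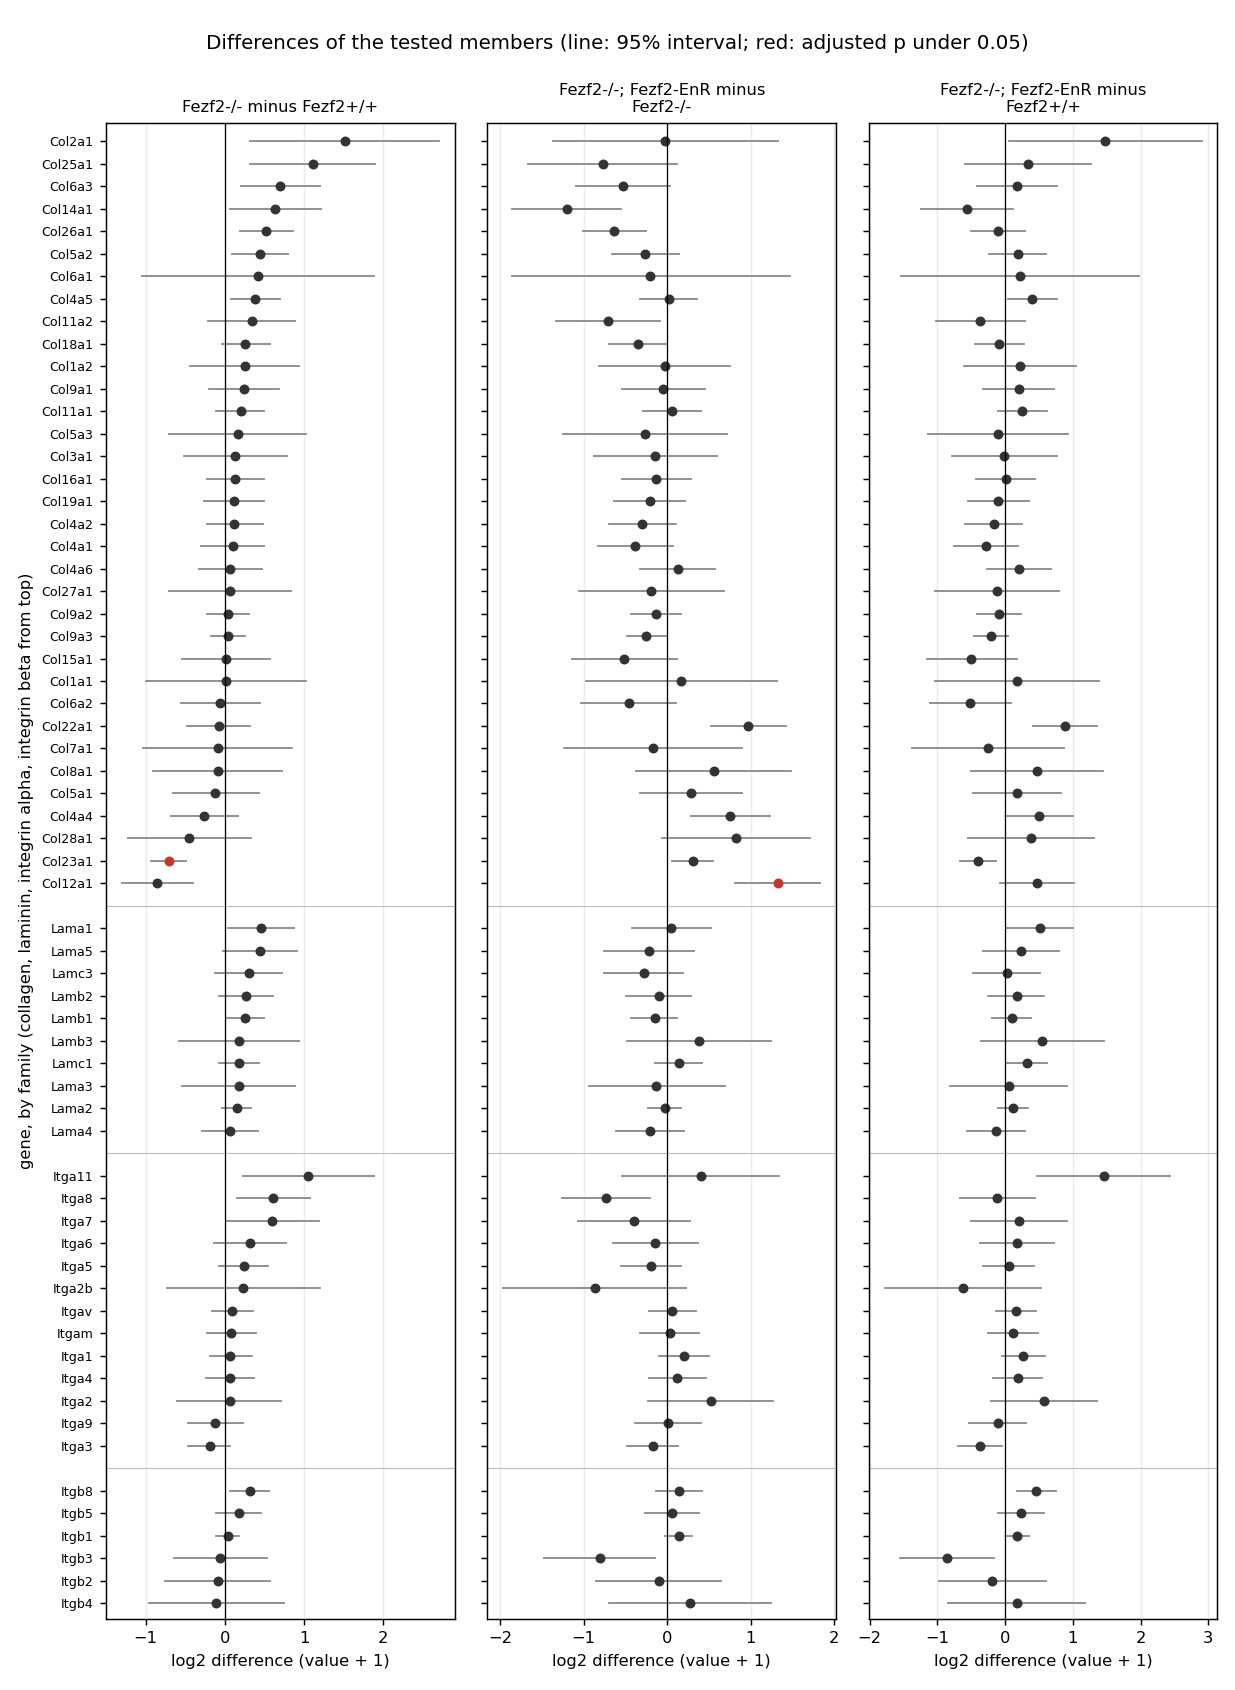
Log2 difference (value + 1) of the tested genes (rows, by family, 1 gene left out) for the 3 comparisons (panels), with points for the estimate, lines for the 95% interval and red for an adjusted p under 0.05 in limma. Col23a1 (-0.71) is red on the left and Col12a1 (1.32) in the middle, no gene is red on the right, and most points of the left panel lie to the right of 0.

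Among the membrane-spanning collagens, Col23a1 (chr11:51289920-51583918, plus strand, GRCm38, GENCODE M21) fell in Fezf2-/- cortices and stood between the other groups with Fezf2-EnR. The 250 bases before its start site (RefSeq, GRCm38.p6, chr11:51289670-51289919, plus strand) are shown because it is the only one of the 64 genes called in the null cortex. Capitals mark its copy of the GC box GGGCGG, read here on the opposite strand.
Col23a1 upstream: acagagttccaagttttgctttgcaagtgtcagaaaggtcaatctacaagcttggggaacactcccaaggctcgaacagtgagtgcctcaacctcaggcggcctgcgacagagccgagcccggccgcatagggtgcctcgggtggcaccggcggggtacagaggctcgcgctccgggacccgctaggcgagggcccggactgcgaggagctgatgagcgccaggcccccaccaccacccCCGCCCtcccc
The stretch is 66% G and C (median of all promoter windows 52.4%) and holds 18 CpG dinucleotides. On either strand, GGGCGG occurs in 32.7% of the 32851 windows of this length, CCAAT in 33.8% and TATAAA in 12.4%, and the last 2 are not in these letters.

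Col23a1 had 291, 275 and 306 normalised read counts in Fezf2+/+, 196, 177, 157 and 181 in Fezf2-/-, and 224 and 215 in Fezf2-/-; Fezf2-EnR. The 3 groups did not overlap, with the null libraries lowest and the wild-type libraries highest. In Fezf2-/- the gene was lower by 0.71 on the log2 scale, a log2 difference of -0.71 ± 0.10 (SE; 95% interval -0.93 to -0.49, adjusted p 0.00593 in limma), and the exact two-sided permutation p was 0.029. With Fezf2-EnR it stood 0.31 ± 0.11 above Fezf2-/- (interval 0.06 to 0.55, adjusted p 0.216 in limma) and -0.40 ± 0.12 from Fezf2+/+ (interval -0.66 to -0.14, adjusted p 0.145), so neither step passed the test. The call in Fezf2-/- held in each of the 9 fits that left out 1 library (adjusted p up to 0.0449), within litter m1 (-0.76, adjusted p 0.0154) and without bc201, which leaves only libraries with Y-linked transcripts in both groups (-0.71, adjusted p 0.0449).

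Col25a1, a membrane collagen of neurons that is needed for motor neurons to innervate muscle, gave the opposite picture. It had 131, 113 and 99.1 normalised read counts in Fezf2+/+, 368, 265, 154 and 243 in Fezf2-/-, and 251 and 82.0 in Fezf2-/-; Fezf2-EnR. Every null library was above every wild-type library, and the Fezf2-EnR libraries lay apart, one within the null range and the other below every wild-type library. The log2 difference of Fezf2-/- from Fezf2+/+ was 1.11 ± 0.35 (interval 0.32 to 1.89, adjusted p 0.271 in limma), which did not pass the test. A DESeq2 fit to reads of 7 libraries called it, but DESeq2 on 9 libraries and edgeR on 7 or 9 did not (adjusted p 0.00459 to 0.607 over the alternatives). Col13a1 and Col17a1, the other membrane-spanning chains, were at most 6.31 in any library and were not tested.

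**Figure D3:**
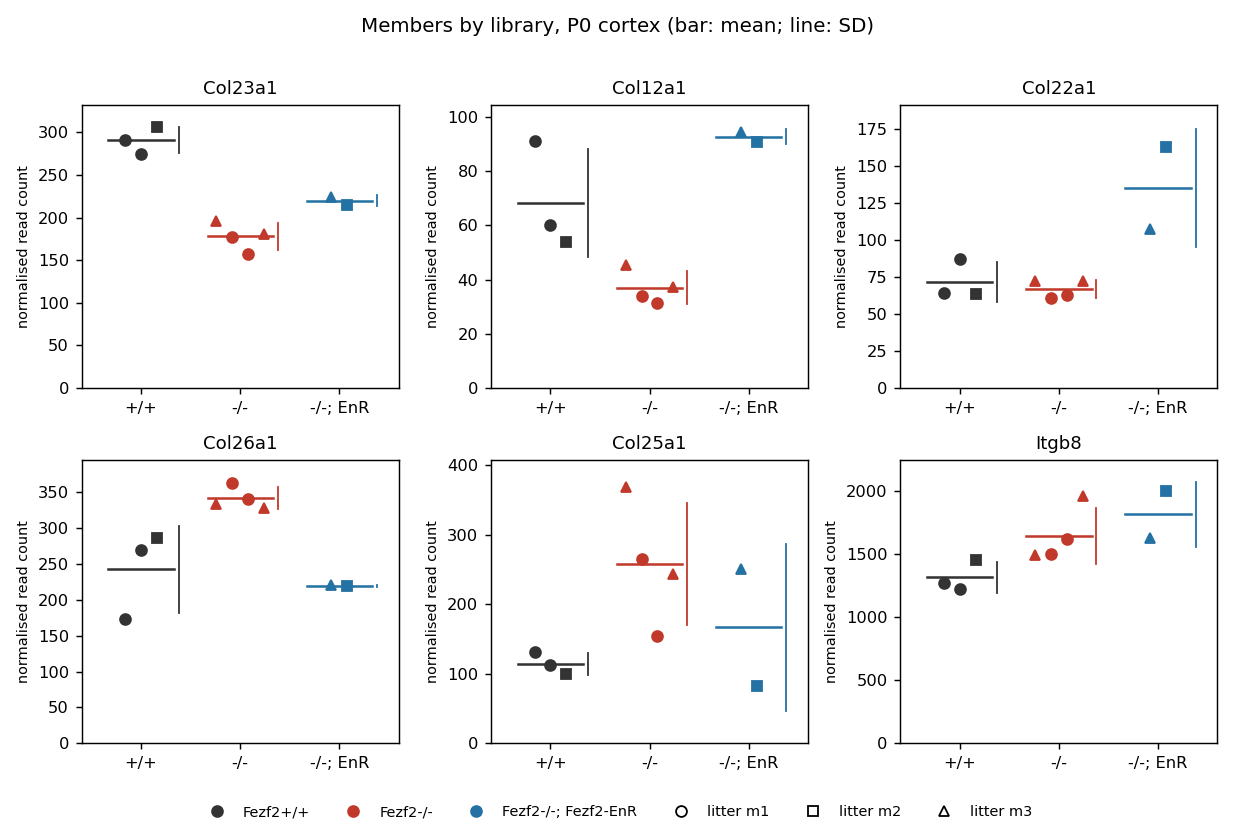
Normalised read counts (vertical axis) of Col23a1, Col12a1, Col22a1, Col26a1, Col25a1 and Itgb8 in each library (points, shaped by litter) of the 3 genotypes (horizontal axis), with the group mean (bar) and SD (line). Col23a1 is lowest in Fezf2-/- (157 to 196) and Col12a1 is high in both Fezf2-/-; Fezf2-EnR libraries (94.6 and 90.7), while Col25a1 spreads from 82.0 to 251 between the same libraries.

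Among the fibril-associated collagens, which decorate fibrils without forming them, Col12a1 (chr9:79598991-79718831, minus strand) was the gene called between Fezf2-/-; Fezf2-EnR and Fezf2-/-. It had 91.2, 60.0 and 53.8 normalised read counts in Fezf2+/+, 45.2, 33.8, 31.3 and 37.4 in Fezf2-/-, and 94.6 and 90.7 in Fezf2-/-; Fezf2-EnR. All null libraries lay below the others. The Fezf2-EnR libraries lay at the level of the highest wild-type library, bc201, and above the other wild-type libraries (60.0 and 53.8). Bc201 was the only wild-type library with high Xist, which both Fezf2-EnR libraries also had. The part of sex in these values was not tested. Col12a1 was higher with Fezf2-EnR by 1.32 ± 0.23 on the log2 scale (interval 0.81 to 1.83, adjusted p 0.0322 in limma). The exact permutation p was 0.067, the smallest this design allows. The call was kept in 4 of the 9 fits that left out 1 library and lost without bc202, bc205, bc206, bc207 or bc209, with adjusted p up to 0.285 and a log2 difference between 1.24 and 1.42. Within litter m3, which holds both genotypes, the difference was 1.18. In Fezf2-/- against Fezf2+/+ it was -0.85 ± 0.20 (adjusted p 0.119 in limma, and 0.0467 to 0.366 over the alternatives, the lowest by DESeq2 on 9 libraries), with -0.62 without bc201. In Fezf2-/-; Fezf2-EnR against Fezf2+/+ it was 0.47 ± 0.24 (interval -0.07 to 1.01, adjusted p 0.312).

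Col22a1, a fibril-associated collagen known from tissue junctions, had 64.2, 87.3 and 63.2 normalised read counts in Fezf2+/+, 72.3, 61.0, 62.5 and 72.3 in Fezf2-/-, and 107 and 163 in Fezf2-/-; Fezf2-EnR. The wild-type and null libraries overlapped, and both Fezf2-EnR libraries were above all of them. The difference was -0.08 ± 0.18 in Fezf2-/- against Fezf2+/+, 0.97 ± 0.20 with Fezf2-EnR against Fezf2-/- (adjusted p 0.068 in limma) and 0.89 ± 0.22 against Fezf2+/+ (adjusted p 0.115). Against Fezf2-/-, DESeq2 on the reads of 9 libraries called it (adjusted p 0.0057, and up to 0.653 over the alternatives). It was also called where bc209 was the lone Fezf2-EnR library (1.27 in limma), which gives no spread of its own, and the difference was 0.66 without bc209. Its exons overlap those of Gm16308 on the opposite strand, and whether counting used strand is not given in the sources used here, so the source of these reads is uncertain.

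Col14a1, which binds fibrils through decorin, went the other way, with 16.1, 13.7 and 11.6 normalised read counts in Fezf2+/+, 20.1, 27.2, 18.8 and 21.6 in Fezf2-/-, and 11.9 and 6.56 in Fezf2-/-; Fezf2-EnR. Here the null libraries were the highest. The log2 differences were 0.63 ± 0.26 in Fezf2-/- against Fezf2+/+ (adjusted p 0.411 in limma) and -1.20 ± 0.29 with Fezf2-EnR against Fezf2-/- (adjusted p 0.106). The latter was -0.81 without bc209 and -1.59, and called, on bc209 alone (adjusted p 0.0269 to 0.737 over the alternatives). Of the other tested chains of this class, Col9a3 was the most abundant, and its libraries ran from 309 to 431 over the 3 groups. Its exons overlap those of Tcfl5 on the opposite strand. For Col9a3 the Fezf2-EnR libraries (329 and 309) lay just below the null libraries (348 to 431), a difference of -0.25 ± 0.11 (adjusted p 0.283).

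Collagen IV forms the network of basement membranes, and the genes of its 6 chains lie in pairs that start close together and run in opposite directions. Col4a1 and Col4a2, on chromosome 8, overlap by 22 bases at their start sites, given here because reads on them cannot be assigned without strand (RefSeq, GRCm38.p6, chr8:11312805-11312826, minus strand).
Col4a1 and Col4a2 overlap: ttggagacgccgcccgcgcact
Between the starts of Col4a4 and Col4a3, on chromosome 1, lie 71 bases (chr1:82586850-82586920, minus strand), shown because a short shared stretch lies before chains of unequal level. The pair Col4a6 and Col4a5, on the X chromosome, lies 1308 bases apart.
Col4a4 to Col4a3: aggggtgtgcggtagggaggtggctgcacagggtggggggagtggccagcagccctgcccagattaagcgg
The ratio of Col4a1 to Col4a2 per kilobase kept to a narrow range, from 1.35 to 1.62 over the 9 libraries. That of Col4a5 to Col4a6 ran from 3.32 to 5.97, and that of Col4a4 to Col4a3, where Col4a3 had at most 9.96 normalised read counts, from 3.17 to 8.72.

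The major chains, Col4a1 and Col4a2, did not pass the test between any groups. Col4a1 had 3618, 3513 and 2152 normalised read counts in Fezf2+/+, 2708, 3836, 3654 and 2845 in Fezf2-/-, and 2343 and 2615 in Fezf2-/-; Fezf2-EnR. The wild-type and null libraries overlapped widely, the litter m1 libraries were the high ones in both groups, and the Fezf2-EnR libraries lay below all null libraries. The log2 difference was 0.10 ± 0.18 in Fezf2-/- against Fezf2+/+ (interval -0.30 to 0.50) and -0.38 ± 0.20 with Fezf2-EnR against Fezf2-/- (interval -0.83 to 0.07, adjusted p 0.365 in limma). Within litter m3 the latter difference was -0.24. Col4a2 gave 0.12 ± 0.16 and -0.30 ± 0.18 for the same comparisons.

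The vascular markers differed between the same libraries. In bc203 the 10 pericyte and smooth muscle markers summed to 3000 normalised read counts, against 4255 and 4229 in the other Fezf2+/+ libraries, 4022 to 4321 in Fezf2-/-, and 3771 and 3510 in Fezf2-/-; Fezf2-EnR. The sums of the 10 endothelial markers were closer, at 4266 to 4467 in Fezf2+/+, 4400 to 4971 in Fezf2-/-, and 4099 and 4609 in Fezf2-/-; Fezf2-EnR. With Fezf2-EnR against Fezf2-/-, 9 of the 10 endothelial markers and 8 of the 10 pericyte markers had a negative log2 difference (medians -0.12 and -0.21). Below all null libraries were Cldn5 and Tie1 (20% of the endothelial markers) and Notch3 (10% of the pericyte markers). Of all genes tested, 50.5% had a positive difference and 12.6% lay below all null libraries. The 5 red blood cell markers summed to 4202 and 4554 with Fezf2-EnR, against 5107 to 8883 in Fezf2-/- and 5696 to 8386 in Fezf2+/+, and all 5 were below the null libraries (median -0.64). In limma 0 of these 25 markers were called in any comparison. The part of these cells in the levels of the basement membrane chains was not tested.

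The minor collagen IV chains differed among themselves. Col4a4 had 41.4, 42.1 and 36.9 normalised read counts in Fezf2+/+, 36.2, 32.7, 28.1 and 37.4 in Fezf2-/-, and 45.8 and 71.0 in Fezf2-/-; Fezf2-EnR. The Fezf2-EnR libraries were above all others, with a log2 difference of 0.75 ± 0.22 from Fezf2-/- (interval 0.28 to 1.23, adjusted p 0.149 in limma). It was 0.44 without bc209 and 1.07 without bc208, where it was called on bc209 alone, as it was by edgeR on 7 libraries (adjusted p 0.0333 to 0.763 over the alternatives). Col4a5 had 161, 128 and 115 in Fezf2+/+ and 172, 196, 163 and 169 in Fezf2-/-, which did not overlap (0.38 ± 0.14, adjusted p 0.327). With Fezf2-EnR it had 195 and 161, a difference of 0.02 ± 0.16 from Fezf2-/- (interval -0.32 to 0.36). Col4a6 ran from 31.6 to 46.8 over all libraries, and its groups overlapped in every comparison.

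**Figure D4:**
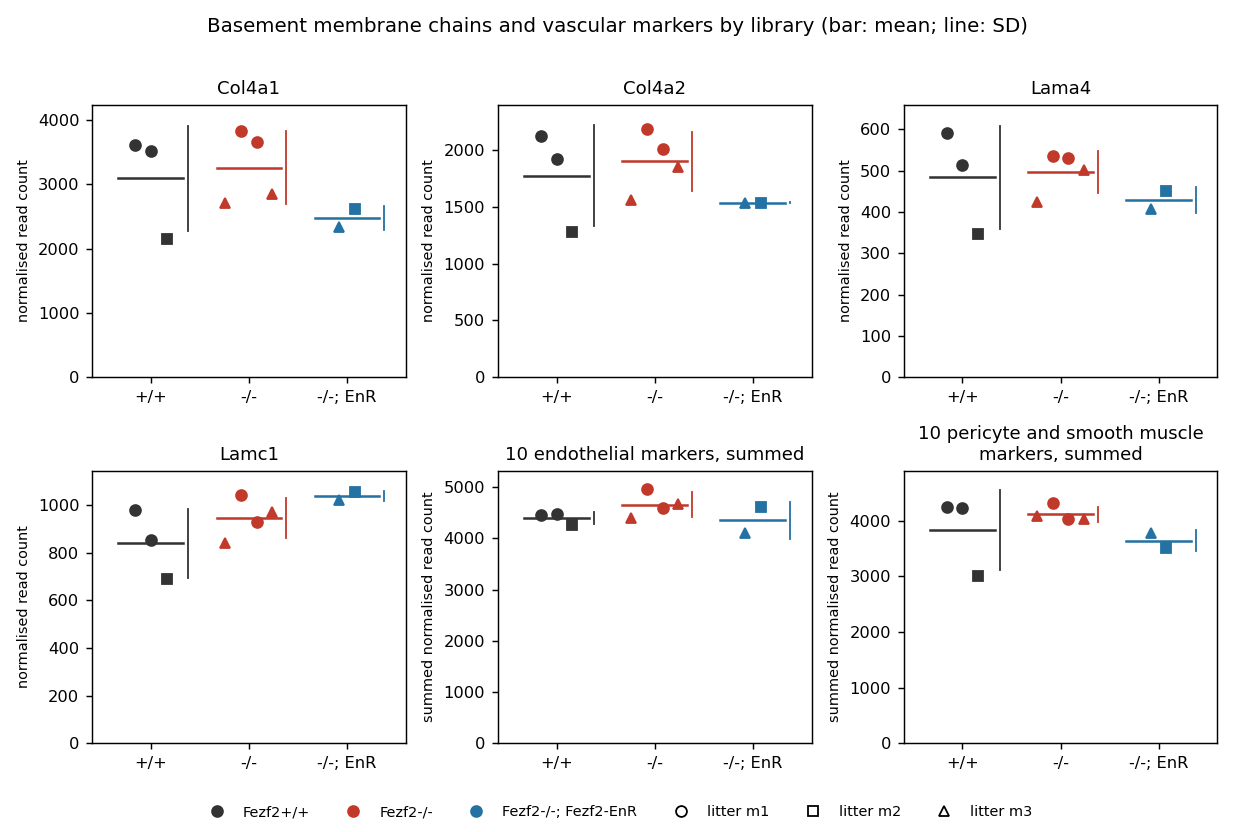
Normalised read counts (vertical axes) of Col4a1, Col4a2, Lama4 and Lamc1 and of 10 endothelial and 10 pericyte and smooth muscle markers, summed, in each library (points, shaped by litter) of the 3 genotypes, with the group mean (bar) and SD (line). In Fezf2+/+, the litter m2 library is lowest for Col4a1 (2152 against 3618 and 3513) and for the pericyte sum (3000 against 4255 and 4229).

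All 11 laminin chains were tested. In Fezf2-/- against Fezf2+/+ all 11 log2 differences were positive, with a median of 0.25 and none called, and 3 chains had an unadjusted p under 0.05. Of all genes tested 50% were positive and 10.8% passed at that level, against 27.3% of the laminins. Lamb1, the beta chain of most embryonic laminins, had 881, 828 and 687 normalised read counts in Fezf2+/+, 807, 946, 957 and 1086 in Fezf2-/-, and 829 and 870 in Fezf2-/-; Fezf2-EnR. The groups overlapped, at 0.25 ± 0.11 for Fezf2-/- against Fezf2+/+ (adjusted p 0.446 in limma). Lama1, the alpha chain of the pial basement membrane, had 70.1, 57.9 and 47.4 in Fezf2+/+, 84.4, 81.7, 82.4 and 70.6 in Fezf2-/-, and 104 and 65.6 with Fezf2-EnR. Its null libraries lay just above the wild-type ones (0.46 ± 0.19, adjusted p 0.412).

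The low chains Lama3 (0.18 ± 0.32) and Lamb3 (0.18 ± 0.34) overlapped between Fezf2-/- and Fezf2+/+. With Fezf2-EnR, 8 of the 11 laminins had a negative log2 difference from Fezf2-/- and 0 had an unadjusted p under 0.05. Of all genes tested, 50.5% were positive in that comparison and 16.9% passed at that level. Lamc1 was the 1 laminin whose Fezf2-EnR libraries (1022 and 1054) were above all Fezf2+/+ libraries (977, 851 and 688), at 0.32 ± 0.13 (adjusted p 0.231).

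Of the 10 tested fibrillar chains, 0 were called in Fezf2-/- against Fezf2+/+ and 9 had a positive log2 difference, with a median of 0.18. The connective tissue chains Col1a1, Col1a2 and Col3a1 overlapped between the groups in every comparison. Col1a1 had 51.5, 41.0 and 21.1 normalised read counts in Fezf2+/+, 28.1, 65.4, 35.5 and 24.9 in Fezf2-/-, and 73.7 and 21.9 in Fezf2-/-; Fezf2-EnR, a difference of 0.01 ± 0.46 between null and wild type. The 9 fibroblast markers, read beside them, summed to 351 to 471 in Fezf2+/+, 304 to 426 in Fezf2-/-, and 559 and 393 with Fezf2-EnR, and the part of those cells in these levels was not tested. Col5a2, which joins type I fibrils as a regulatory chain, had 171, 141 and 125 in Fezf2+/+, 236, 186, 172 and 199 in Fezf2-/-, and 195 and 139 with Fezf2-EnR. Its null libraries were all above the wild-type ones (0.44 ± 0.16, adjusted p 0.328 in limma). The cartilage collagen Col2a1 had 17.7, 16.8 and 2.11 in Fezf2+/+ and 23.3 to 32.7 in Fezf2-/-, a difference of 1.51 ± 0.54 (adjusted p 0.326) that was 0.75 within litter m1, which lacks the low library bc203. With Fezf2-EnR it had 21.9 and 33.9.

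In the collagen VI group of beaded filaments and its relatives, Col26a1 had intervals that excluded 0 in both steps, though neither passed the test. It had 173, 269 and 286 normalised read counts in Fezf2+/+, 334, 363, 341 and 328 in Fezf2-/-, and 221 and 219 in Fezf2-/-; Fezf2-EnR. Every null library was above the rest. The Fezf2-EnR libraries lay within the wild-type range only because of bc201 (173), and below the other wild-type libraries. Bc201 was the only wild-type library with high Xist, which both Fezf2-EnR libraries also had, and the part of sex was not tested. The log2 difference was 0.52 ± 0.15 in Fezf2-/- against Fezf2+/+ (interval 0.19 to 0.86, adjusted p 0.214 in limma), -0.63 ± 0.17 with Fezf2-EnR against Fezf2-/- (interval -1.01 to -0.25, adjusted p 0.135) and -0.11 ± 0.18 against Fezf2+/+ (interval -0.51 to 0.29). Against Fezf2-/- it was called by DESeq2 on the reads of 9 libraries and by limma when only those groups, or all libraries but bc201, entered the fit. When 1 library was left out, the difference of Fezf2-/- from Fezf2+/+ ran from 0.30 to 0.66. Col6a3, the longest chain of collagen VI, had 70.1, 50.5 and 60.1 in Fezf2+/+, 78.3, 86.1, 88.6 and 152 in Fezf2-/-, and 61.7 and 73.2 with Fezf2-EnR. All null libraries were above the others (0.70 ± 0.22, adjusted p 0.271), and bc207 was far above the rest of its group. Col6a1 and Col6a2, its partner chains, overlapped in every comparison.

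Of the remaining collagens, Col18a1, the basement membrane collagen that releases endostatin, had 172, 158 and 137 normalised read counts in Fezf2+/+, 187, 197, 179 and 182 in Fezf2-/-, and 176 and 120 in Fezf2-/-; Fezf2-EnR. The null libraries were the highest, by small margins (0.26 ± 0.14 against Fezf2+/+, and -0.35 ± 0.16 for Fezf2-EnR against Fezf2-/-, adjusted p 0.543 and 0.287 in limma). The latter difference was -0.63 without bc208, where it was called on bc209 alone, and -0.08 without bc209 (adjusted p 0.0448 to 0.918 over the alternatives). Col11a2, a minor fibrillar chain, had 39.7, 27.4 and 19.0 in Fezf2+/+, 32.1 to 41.4 in Fezf2-/-, and 23.9 and 18.6 with Fezf2-EnR, which was below all null libraries (-0.71 ± 0.28, adjusted p 0.246). Col8a1, Col7a1, Col15a1, Col16a1 and Col19a1 overlapped between the groups in all 3 comparisons.

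Among the integrins, 0 of the 19 tested subunits were called in any comparison by limma. Itgb1, the most abundant, had 2074, 2006 and 1967 normalised read counts in Fezf2+/+, 1995, 2100, 2230 and 1956 in Fezf2-/-, and 2145 and 2414 in Fezf2-/-; Fezf2-EnR. Its interval was narrow, from -0.11 to 0.18 for Fezf2-/- against Fezf2+/+. The Fezf2-EnR libraries were just above all wild-type ones (0.17 ± 0.08, adjusted p 0.256). The other abundant subunits, Itgav (415 to 574), Itga6 (517 to 828 outside bc203, where it was lowest), Itga3 (221 to 324) and Itgb5 (334 to 479), overlapped between Fezf2-/- and Fezf2+/+, with log2 differences from -0.19 to 0.32. Itga3, which pairs with Itgb1 to bind laminin, stood lower in the Fezf2-EnR libraries (249 and 221) than in all Fezf2+/+ libraries (318, 324 and 270), at -0.37 ± 0.14 (adjusted p 0.205).

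Itgb8, carried by radial glia and other neural cells, had 1271, 1218 and 1449 normalised read counts in Fezf2+/+, 1488, 1498, 1616 and 1959 in Fezf2-/-, and 1628 and 1995 in Fezf2-/-; Fezf2-EnR. All mutant libraries, with or without the transgene, were above all wild-type libraries. The log2 difference from Fezf2+/+ was 0.32 ± 0.11 in Fezf2-/- (interval 0.07 to 0.56, adjusted p 0.316 in limma) and 0.46 ± 0.13 in Fezf2-/-; Fezf2-EnR (interval 0.17 to 0.75, adjusted p 0.143), and the latter was called by DESeq2 (adjusted p 0.029 on 9 libraries, and 0.0057 to 0.443 over the alternatives). Between the mutant groups it was 0.14 ± 0.13. The 7 radial glia and astrocyte markers summed to 14056 to 15230 in Fezf2+/+, 15288 to 18176 in Fezf2-/-, and 18217 and 17608 in Fezf2-/-; Fezf2-EnR. The lowest null sum was thus just above the highest wild-type sum. Taken singly, 2 of the 7 (28.6%) did not overlap between Fezf2-/- and Fezf2+/+, against 13% of all genes tested. Between Fezf2-/-; Fezf2-EnR and Fezf2+/+ it was 5 of the 7 (71.4%), against 34.6%. The part of these cells in the level of Itgb8 was not tested.

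Other integrins were lower in level and less certain. Itga8, a receptor of nephronectin, had 41.4, 30.5 and 41.1 normalised read counts in Fezf2+/+, 56.2, 50.1, 59.4 and 65.6 in Fezf2-/-, and 44.8 and 26.2 in Fezf2-/-; Fezf2-EnR. The null group was above the other libraries (0.61 ± 0.21 against Fezf2+/+, and -0.73 ± 0.24 for Fezf2-EnR against Fezf2-/-, adjusted p 0.309 and 0.187 in limma). When 1 library was left out, the latter difference ran from -1.11 without bc208, where it was called on the lone library bc209, to -0.36 without bc209 (adjusted p 0.0357 to 0.791 over the alternatives). The exons of Itga8 overlap those of E030013I19Rik on the opposite strand. Itgb3, whose dimers bind vitronectin and fibrinogen, had 113, 106 and 145 in Fezf2+/+, 114, 123, 86.5 and 148 in Fezf2-/-, and 99.6 and 43.7 with Fezf2-EnR, where bc209 was by far the lower library (-0.80 ± 0.30 against Fezf2-/-, adjusted p 0.225). Without bc209 that difference was -0.22, and it was -1.39 and called on bc209 alone (adjusted p 0.00849 to 0.873 over the alternatives). The collagen receptor Itga11 was near the limit of what was tested, at 3.16 to 8.45 in Fezf2+/+, 7.48 to 15.2 in Fezf2-/-, and 20.9 and 10.9 with Fezf2-EnR. Its estimates against Fezf2+/+ were 1.05 ± 0.37 and 1.46 ± 0.45 (adjusted p 0.325 and 0.153), with the wild-type and null libraries overlapping by a small amount. Itgam, the integrin of microglia, ran only from 44.2 to 54.8 over all 9 libraries. Exons of Gm49368 on the same strand overlap those of Itgam.

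The 17 genes under the filter had means from 0.747 to 9.74 and no value above 17.1 normalised read counts. They included Col10a1 of growth plate cartilage, the epithelial Itgb6 and the leukocyte subunits Itgal, Itgax, Itgad and Itgae, and no difference in them was testable at this depth.

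The genes that process, bind or compete with these proteins were followed by 6 lists, and in 3 of them a gene was called. Among 30 tested collagen-modifying and -processing enzymes, 1 rose and 0 fell in Fezf2-/- against Fezf2+/+ (0.512% and 0.346% of all genes tested). Adamts3, which removes the amino-terminal propeptide of procollagens and also acts on reelin and pro-VEGF-C, had 1033, 959 and 998 normalised read counts in Fezf2+/+, 1382, 1347, 1662 and 1878 in Fezf2-/-, and 1216 and 1411 in Fezf2-/-; Fezf2-EnR. All mutant libraries were above all wild-type ones (null against wild type 0.64 ± 0.11, adjusted p 0.027 in limma, exact permutation p 0.029). With Fezf2-EnR it was -0.25 ± 0.13 from Fezf2-/- (adjusted p 0.349) and 0.39 ± 0.13 from Fezf2+/+ (adjusted p 0.171). Its call was lost with litter as a replicate block (0.66, adjusted p 0.055) and when bc201, bc202, bc203 or bc206 was left out (adjusted p up to 0.158), while the estimate stayed between 0.55 and 0.71 under the alternatives run.

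With Fezf2-EnR against Fezf2-/-, 1 of the 30 enzymes fell and 0 rose (0.432% and 0.333% of all genes tested). The enzyme called was Loxl2, a lysyl oxidase that cross-links collagen IV. It had 171, 202 and 158 normalised read counts in Fezf2+/+, 220, 350, 384 and 266 in Fezf2-/-, and 128 and 125 in Fezf2-/-; Fezf2-EnR. The null libraries were highest and the Fezf2-EnR libraries lay below all wild-type ones, and the differences were 0.75 ± 0.18 for null against wild type (adjusted p 0.115 in limma) and -1.23 ± 0.20 with Fezf2-EnR against null (adjusted p 0.0268). The latter call was lost without bc205 (adjusted p 0.0768), without bc209 (adjusted p 0.267) and with only those groups in the fit (adjusted p 0.0634). Exons of Gm27177 on the opposite strand and Mir6950 on the same strand overlap those of Loxl2, so part of its reads is uncertain.

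Of 7 tested proteoglycans that bind fibrillar collagen, Lum, or lumican, was called in both steps (lower, 0.346% of all genes tested, then higher, 0.333%). It had 22.8, 17.9 and 17.9 normalised read counts in Fezf2+/+, 3.01, 4.36, 1.04 and 4.15 in Fezf2-/- (1 to 5 reads a library), and 24.9 and 13.1 in Fezf2-/-; Fezf2-EnR. All 4 null libraries were below the rest, and the Fezf2-EnR libraries spanned the wild-type values. It fell by 2.40 on the log2 scale in Fezf2-/- (-2.40 ± 0.39, adjusted p 0.0176 in limma) and rose by 2.30 ± 0.44 with Fezf2-EnR (adjusted p 0.0426). The fall was no longer called when any of the 3 Fezf2+/+ libraries was left out (adjusted p up to 0.0979), and the rise was no longer called in any of the 9 fits that left out 1 library (adjusted p up to 0.153) or with litter as a replicate block (adjusted p 0.0701). Lum is also a marker of meningeal fibroblasts. Of the 6 tested genes of that marker list it was the 1 called. The 6 had a median log2 difference of -0.07 in Fezf2-/- against Fezf2+/+, with 1 gene, Lum, at an unadjusted p under 0.05, and of 0.41 with Fezf2-EnR against Fezf2-/-, with 2 genes at that level. The other of these was Islr, with 221 to 247 in Fezf2+/+, 158 to 239 in Fezf2-/-, and 325 and 243 in Fezf2-/-; Fezf2-EnR (-0.28 ± 0.15 and 0.52 ± 0.17, adjusted p 0.547 and 0.187 in limma). The part of these cells in the values of Lum was not tested.

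Among 20 tested integrin ligands other than collagens and laminins, 2 fell in Fezf2-/-, the matricellular Thbs2 and Ctgf, and 0 rose. Of all genes tested, 0.346% were called lower and 0.512% higher. Thbs2, or thrombospondin-2, had 142, 135 and 94.8 normalised read counts in Fezf2+/+, 48.2, 54.5, 61.5 and 72.3 in Fezf2-/-, and 93.6 and 101 in Fezf2-/-; Fezf2-EnR. Again the null libraries were the lowest, and the Fezf2-EnR libraries lay at the lower end of the wild-type values. The fall was -1.05 ± 0.18 (adjusted p 0.0248 in limma), and it was not called without bc201, bc202, bc204, bc205 or bc206 (adjusted p up to 0.158). The step back with Fezf2-EnR was 0.72 ± 0.20 (adjusted p 0.146). Ctgf, a gene of subplate neurons, had 335 to 404 in Fezf2+/+, 117 to 171 in Fezf2-/-, and 365 and 381 in Fezf2-/-; Fezf2-EnR. Its fall in Fezf2-/- was -1.40, and from -1.48 to -1.30 when 1 library was left out. Ctgf was the 1 of the 20 that rose with Fezf2-EnR (1.38 ± 0.16, adjusted p 0.0033 in limma). This rise was 1.35 without bc209, where it was not called. Exons of Gm15270 on the opposite strand overlap those of Ctgf.

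**Figure D5:**
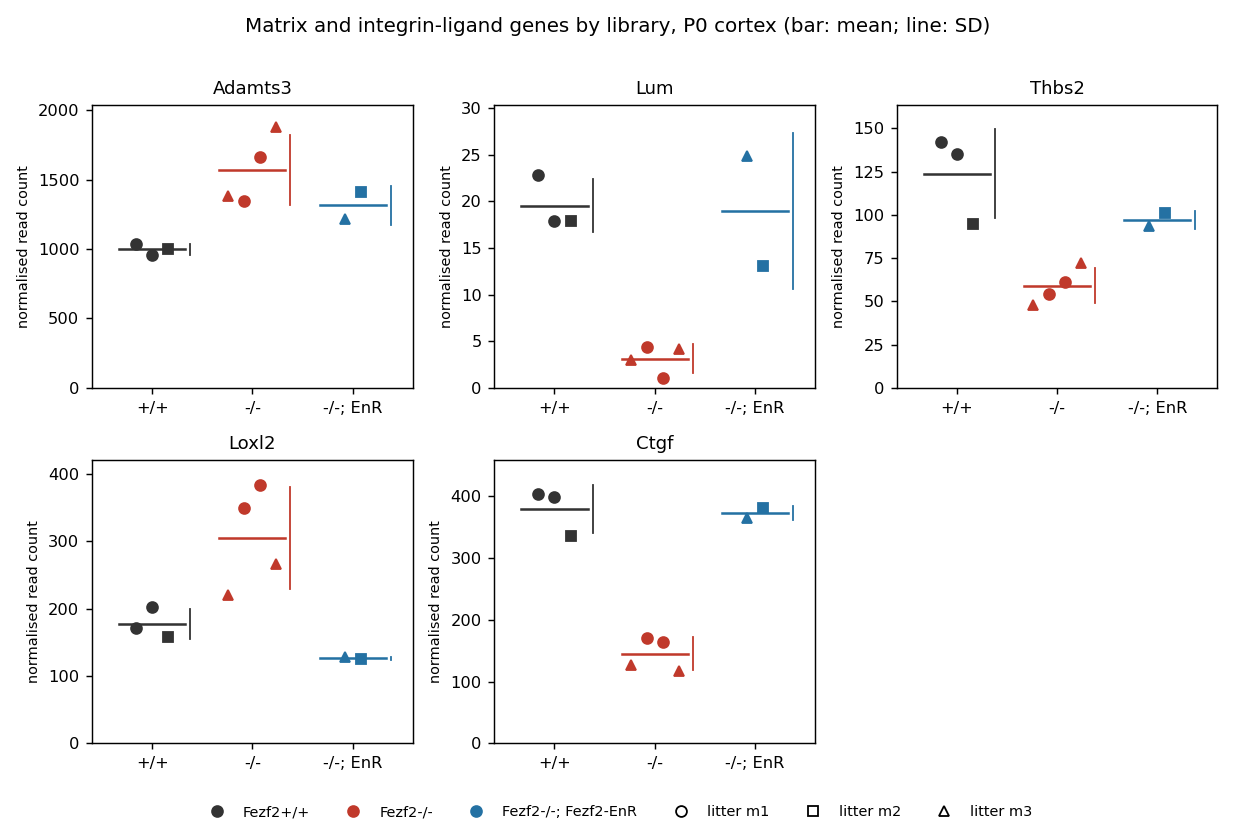
Normalised read counts (vertical axes) of Adamts3, Lum, Thbs2, Loxl2 and Ctgf in each library (points, shaped by litter) of the 3 genotypes, with the group mean (bar) and SD (line). Lum is at 1.04 to 4.36 in Fezf2-/- and at 13.1 or more in every other library, and Loxl2 is highest in Fezf2-/- (220 to 384) and lowest with Fezf2-EnR (128 and 125).

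In the other 3 lists, no gene was called in any comparison by limma. The 13 basement membrane partners (nidogens, perlecan, agrin, dystroglycan and others) had a median log2 difference of 0.18 in Fezf2-/- against Fezf2+/+, 12 of them positive, and of -0.10 with Fezf2-EnR against Fezf2-/-, with 2 genes in each comparison (15.4%) at an unadjusted p under 0.05, where 10.8% and 16.9% of all genes tested passed. The 24 integrin adaptors and signalling proteins had medians of 0.04 and -0.06, with 5 genes in each (20.8%) at that level. The 5 collagen receptors that are not integrins had medians of 0.06 and 0.18, with 0 and 1 gene.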

How the data were processed

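The gene families, the rule for named genes and the gene lists were chosen with earlier results of these data known. Within the families, every gene was taken by its symbol. P0 cortical RNA of 9 pups was measured by polyA RNA-seq. Expression was deposited as a signal per gene (24624 genes), made by the authors by scaling each library's read counts with DESeq size factors. Their processing notes name STAR, Bowtie, DESeq and mm10, whereas their methods name TopHat in place of STAR, so the aligner is uncertain, and the strand setting of the counting is not given in the sources used here. Gene positions, exon lengths and overlaps came from GENCODE M21 (GRCm38), which matched 24595 identifiers, and 58 of the 81 genes had a RefSeq promoter window. For 25 of the 81 genes, exons overlap those of another gene, so part of their reads is uncertain. Only some of these genes are marked above.

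Genes with a mean of at least 10 were tested on log2(value + 1) with limma 3.58.1 (R 4.3.3; lmFit, eBayes with trend), with 1 coefficient per genotype, all 9 libraries, no covariate and Benjamini-Hochberg adjustment over 16197 genes. Exact permutation tests were two-sided. Fold differences are on the log2(value + 1) scale and understate those of low genes. In all 9 libraries 100.0% of values were whole multiples of 1 read within 0.1 of a read, but in bc204 and bc208 1 read is worth so near to 1 (1.0043 and 0.9956) that a stricter rule left them out, so edgeR 4.0.16 and DESeq2 1.42.0 were run on reads of 7 and of 9 libraries. On the 7, DESeq2 called 2 and edgeR 1 of the 64 genes in Fezf2-/- against Fezf2+/+.

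Litters come from the labels. Across genotypes, deviations of same-litter libraries from their group means had correlations from 0.02 to 0.23 over 7 pairs (19 other pairs, -0.32 to 0.32), and litter was a replicate block in 1 alternative. Named genes were those called in any comparison, the 12 with the smallest p in each of the comparisons of Fezf2-/- against Fezf2+/+ and of Fezf2-/-; Fezf2-EnR against Fezf2-/-, the 3 highest wild-type levels per family, the 6 collagen IV chains, Fezf2, and listed pathway genes called. Other genes named were chosen after their values were seen. Of the genes under this rule, 1 is not reported here, though it stays in the counts and medians. On simulated data of 16082 genes, limma called 40.30% of genes with a log2 change of 0.5 and 75.76% with 1 in Fezf2-/- against Fezf2+/+. The simulated libraries were drawn independently, with no litter or sex differences and a full return with Fezf2-EnR. These shares hold for that setting only. Figures used Matplotlib 3.10.9.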

Additional observations from a re-analysis of the deposited data

Results flagged for a closer look

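Col6a3 in the Fezf2-/- library bc207 stood far from the other libraries of its group, at 152 normalised read counts against 78.3 to 88.6, and the gap to its neighbour was 0.861 of the whole range, above Dixon's critical value for 4 samples. About 1 in 20 groups is flagged by chance, and 36 genes were examined. The cause was not tested.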

How the results depend on the processing

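The numbers of called genes among the 64 depended on the alternative. In Fezf2-/- against Fezf2+/+ the count was 1 under 21 of 24 alternatives, 2 by DESeq2 on 7 or 9 libraries (1.96% and 1.94% of all genes) and 16 at an unadjusted p under 0.05, and it was 1 in each fit that left out 1 library. In Fezf2-/-; Fezf2-EnR against Fezf2-/- it was 2 with only those groups in the fit, 0 without the 2 libraries of litter m2, 5 by edgeR and 5 by DESeq2 on 7 libraries (4.04% and 6.8% of all genes; 1 Fezf2-EnR library remains and is assumed to vary like the other groups), 3 by DESeq2 on 9 libraries (2.8% of all genes), 11 at an unadjusted p under 0.05, and from 0 to 9 when 1 library was left out, with 9 without bc208 (6.72% of all genes). In Fezf2-/-; Fezf2-EnR against Fezf2+/+ it was 1 by edgeR or DESeq2 on 7 libraries (1.3% and 5.86% of all genes), 1 by DESeq2 on 9 (3.96%), 11 at an unadjusted p under 0.05 and from 0 to 3 when 1 library was left out, with 3 without bc208 (3.03%). The median log2 difference of the members turned from -0.13 to 0.04 with litter as a replicate block and to 0.05 without bc209 or without litter m2 in Fezf2-/-; Fezf2-EnR against Fezf2-/-, and from 0.17 to -0.09 without bc208 and to -0.12 by edgeR or DESeq2 on 7 libraries against Fezf2+/+. When 1 library was left out, these medians ran from -0.28 to 0.05 and from -0.09 to 0.20. The cause was not tested. The replicate block kept the member counts at 1, 1 and 0. In Fezf2-/-; Fezf2-EnR against Fezf2-/-, Col12a1 stayed at 1.42 (adjusted p 0.0432 in limma) with the block. The 36 differences of named members that were followed kept their direction under every alternative run. They were picked for an unadjusted p under 0.05 in limma in that comparison, or for a member called in any comparison. A change of direction was therefore unlikely from the start. The 9 libraries, of which 2 carry Fezf2-EnR, limit what can be detected. In simulated data with no litter or sex differences, limma called 29.85% of genes with a log2 change of 0.5 in Fezf2-/-; Fezf2-EnR against Fezf2-/-. The runs without litter m2 and on the reads of 9 libraries were chosen after seeing the data.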
